A study of Mus musculus with 2 samples.

Results

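Reelin is a secreted glycoprotein that guides newborn neurons to their layer in the developing cortex. It binds Vldlr and Lrp8 (also called ApoER2), receptors of the low-density lipoprotein (LDL) receptor family, and the adaptor Dab1, docked on the receptor tails, is then phosphorylated by Src family kinases such as Fyn. Phosphorylated Dab1 recruits the adaptors Crk and Crkl, which bring in Rapgef1, an exchange factor that loads the small GTPase Rap1a with GTP and thereby acts on adhesion. The genes of this chain described here are *Reln*, *Dab1*, *Vldlr*, *Lrp8*, *Crk*, *Crkl*, *Fyn*, *Rap1a* and *Rapgef1*, picked by name as textbook components. All 9 were found among the 24411 genes counted, and all 9 passed the minimum used for counts over all genes, a mean of at least 1 CPM (counts per 1000000 gene-assigned reads) over both libraries, as did 12738 genes in all.

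The samples were pieces of fresh-frozen brain from mouse embryos at day 16.5, cut by laser capture microdissection (LCM), which excises chosen areas of a stained section with a laser, and measured by bulk RNA-seq. The 2 libraries were 1 from the subventricular zone (SVZ), where neural progenitors divide beside the lateral ventricle, and 1 from the cortex. No genotype, strain, treatment or sex was stated in the labels, and the sources used here do not say how many embryos gave the pieces. The study cut these areas as a benchmark for a light-driven barcoding method, so the comparison of SVZ with cortex is the one the design implies. With 1 library per area no difference has a replicate check, no test was possible, and each interval below is an exact 95% interval of the read counts, which covers counting error only, since copies of a molecule made by PCR cannot be told from separate molecules. In bulk tissue, fewer cells of a type and less RNA per cell cannot be told apart.

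The SVZ library held 51435667 gene-assigned reads and the cortex library 22050693, so 1 read was worth 0.0194 and 0.0454 CPM. Over the 12738 genes compared, the log2 ratio of CPM, SVZ over cortex, had a median of 0.11, with quartiles of -0.56 and 0.76, and for 86.8% of genes the counting interval excluded equal CPM. Past 2-fold lay 20.0% of these genes towards the SVZ and 15.6% towards the cortex, and past 4-fold 10.2% and 7.01%. The labels were checked against cell type markers. All 10 progenitor markers were at least 4-fold higher in the SVZ (summed level 2090 against 76.1 CPM), from *Nes* (log2 ratio 2.64) to *Eomes* (11.29). Of 10 neuronal markers, 8 were at least 2-fold higher in the cortex (3270 against 9940 CPM), from *Neurod2* (-0.69) to *Nefl*, which had 0 reads in the SVZ and was at least 220-fold higher in the cortex against a floor of 3 reads.

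The members differed in the direction and size of their ratios. The ligand *Reln*, the receptor *Vldlr* and the adaptor *Dab1* were 6.24-fold to 11.2-fold higher in the cortex, the receptor *Lrp8* was 1.98-fold higher in the SVZ, and the other 5 members, the kinase, the Crk adaptors and the Rap1 arm, lay within 1.45-fold. Thus 3 of 9 members were at least 2-fold, and the same 3 at least 4-fold, higher in the cortex, beside 15.6% and 7.01% of all genes compared, and 0 of 9 were at least 2-fold higher in the SVZ, beside 20.0% of all genes. The median log2 ratio of the members was -0.08, beside 0.11 for all genes.

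*Reln* (GRCm38 chromosome 5, 21884454 to 22344702, minus strand), which encodes the ligand, had 127 reads or 2.47 CPM in the SVZ and 610 reads or 27.7 CPM in the cortex. The log2 ratio was -3.49 (interval -3.77 to -3.21), and 2.75% of the genes compared had a lower one. *Reln* had the fewest reads of the 9 members in both libraries, so its ratio is the least precise of them. A pseudocount of 1 CPM, the alternative that moved it most, gave -3.05. An antisense gene, *Gm10475*, overlaps 246 exonic bases of *Reln* and has no row of its own in the counts. Since the libraries kept no strand (49.6% and 49.7% of stranded reads fell in the first strand column), reads of *Gm10475* cannot be told apart from those of *Reln*.

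Reelin in the embryonic cortex comes mainly from Cajal-Retzius cells of the marginal zone, and later also from interneurons, so the markers of both were set beside it. The 7 Cajal-Retzius markers summed to 13.8 CPM in the SVZ and 14.6 CPM in the cortex. Among them *Lhx1* and *Lhx5* had 0 reads in both libraries, *Trp73* had 5 reads in the SVZ and 12 in the cortex (log2 ratio of CPM -2.48, interval -4.34 to -0.88), *Ndnf* had 4 and 15 (-3.13, -5.18 to -1.48), and *Calb2* had 60 and 57 (-1.15, -1.70 to -0.60), all 3 towards the cortex like *Reln*. *Ebf3*, with 57 and 4 reads, stood at 2.61 (1.18 to 4.54). *Trp73*, *Ndnf* and *Ebf3* had means under the minimum of 1 CPM, so only *Calb2* and *Nhlh2* were among the genes compared. *Nhlh2*, with 585 and 235 reads and a log2 ratio of 0.09, made up most of the sum, whose log2 ratio was -0.08 (-0.28 to 0.11). The 12 interneuron markers summed to 206 and 542 CPM. Of the 11 compared, 2 were at least 2-fold higher in each direction, beside 20.0% (SVZ) and 15.6% (cortex) of all genes. *Npy*, with 733 reads in the SVZ and 8355 in the cortex (log2 ratio -4.73), took most of the cortex sum. The part of either cell type in the *Reln* ratio was not tested.

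Of the receptors, *Vldlr* (chromosome 19, 27216484 to 27254231, plus strand) had 2001 reads or 38.9 CPM in the SVZ and 5701 reads or 259 CPM in the cortex. The log2 ratio was -2.73 (-2.81 to -2.66), or 6.65-fold higher in the cortex. *Lrp8* (chromosome 4, 107802261 to 107876840, plus strand) had the opposite direction, with 12159 reads or 236 CPM in the SVZ and 2631 reads or 119 CPM in the cortex. Its log2 ratio was 0.99 (0.93 to 1.05), just under the 2-fold threshold, and 79.7% of the genes compared had a lower one. The ratio ranged from 0.89 to 0.99 under the other scalings and settings. The prevailing receptor transcript therefore differed between the libraries. There were 0.165 *Vldlr* reads for each *Lrp8* read in the SVZ and 2.17 in the cortex, a 13.2-fold difference (log2 -3.72, interval -3.82 to -3.62) that does not depend on how the libraries are scaled. Per kilobase of annotated exon the ratio was 0.172 in the SVZ and 2.26 in the cortex, and with the length of the longest transcript it was 0.137 and 1.80.

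*Dab1* (chromosome 4, 103619359 to 104744844, plus strand) had 7467 reads or 145 CPM in the SVZ and 19971 reads or 906 CPM in the cortex. The log2 ratio was -2.64 (-2.68 to -2.60), or 6.24-fold higher in the cortex. *Dab1* and *Vldlr* kept nearly the same proportion in both areas, with 3.73 *Dab1* reads per *Vldlr* read in the SVZ and 3.50 in the cortex (log2 difference 0.09, interval 0.01 to 0.17). Against *Lrp8*, *Dab1* went from 0.614 to 7.59 reads per read, a 12.4-fold difference. *Reln* reads per *Dab1* read were 0.0170 in the SVZ and 0.0305 in the cortex (log2 difference -0.84, interval -1.13 to -0.56), so the ligand differed between the libraries somewhat more than the adaptor. The neuronal and progenitor marker sums given above moved with these 3 genes and with *Lrp8* respectively, and their part in the ratios was not tested.

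**Figure D1:**
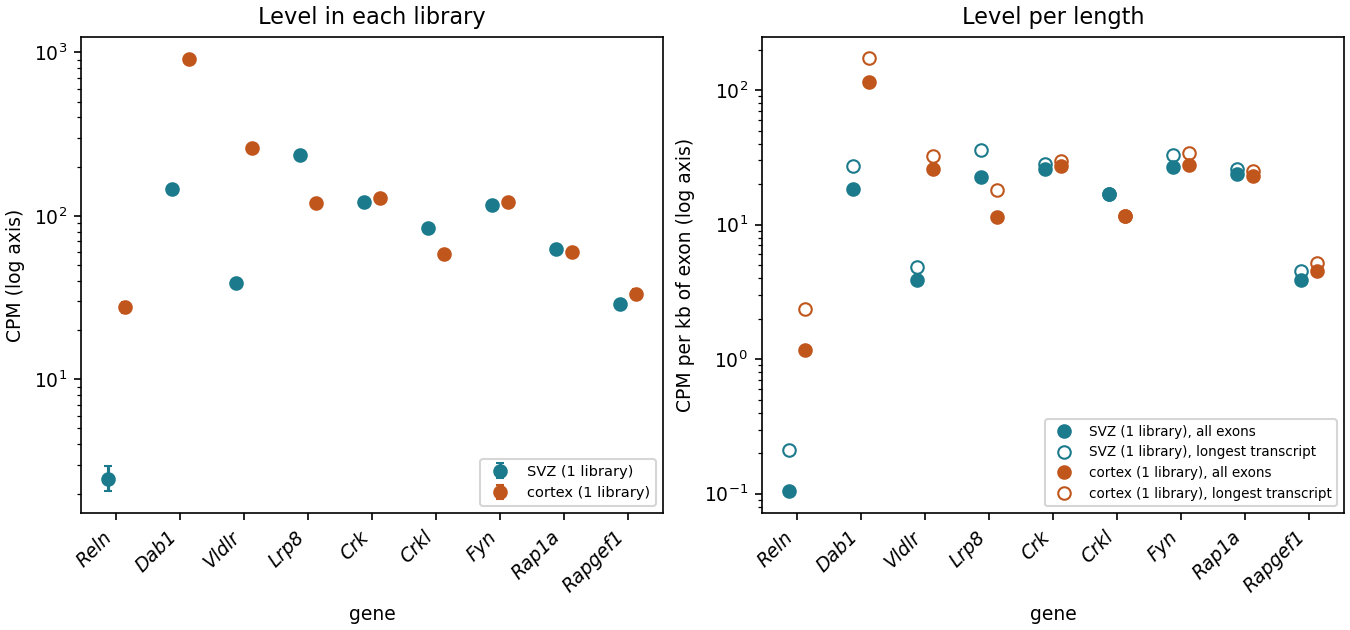
Left, level of each member in the SVZ and the cortex library in CPM on a log axis, with exact 95% counting intervals, most of which are smaller than the points. Right, the same levels per kilobase of exon, with filled points for all annotated exons and open points for the longest transcript. *Reln*, *Dab1* and *Vldlr* sit higher in the cortex, *Lrp8* and *Crkl* sit higher in the SVZ, and the points of *Crk*, *Fyn*, *Rap1a* and *Rapgef1* nearly coincide.

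Sequences before a listed start of these 4 genes are shown because they are the members that were furthest apart between the areas, in both directions. They were taken from the RefSeq promoter table (GRCm38.p6), which matched 8 of the 9 members, at the most upstream start listed for each gene. Of the 250 bases before that start, called the window, those under an annotated exon were left out of the printed sequence. For *Lrp8* the GENCODE gene begins further upstream than that RefSeq start, so by that annotation the stretch lies within the gene, outside its exons. Capitals mark matches, on either strand, to 6 motifs searched, namely the TATA box (TATAAA), the CCAAT box (CCAAT), the GC box (GGGCGG), a T-box element (TCACACC), an E-box (CAGATG) and the cyclic AMP element (TGACGTCA). No matches overlapped in these 4 genes.
*Reln* (chr5:22344706-22344955, minus strand): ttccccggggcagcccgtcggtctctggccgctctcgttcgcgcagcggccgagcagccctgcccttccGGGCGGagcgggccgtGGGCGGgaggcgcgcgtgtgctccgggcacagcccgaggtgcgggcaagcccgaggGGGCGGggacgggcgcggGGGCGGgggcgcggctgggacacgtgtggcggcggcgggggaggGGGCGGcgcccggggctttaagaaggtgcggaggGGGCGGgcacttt
*Dab1* (chr4:103619250-103619358, plus strand): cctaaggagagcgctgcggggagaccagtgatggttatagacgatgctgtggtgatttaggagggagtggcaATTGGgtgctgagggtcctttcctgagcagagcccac
*Vldlr* (chr19:27216234-27216483, plus strand): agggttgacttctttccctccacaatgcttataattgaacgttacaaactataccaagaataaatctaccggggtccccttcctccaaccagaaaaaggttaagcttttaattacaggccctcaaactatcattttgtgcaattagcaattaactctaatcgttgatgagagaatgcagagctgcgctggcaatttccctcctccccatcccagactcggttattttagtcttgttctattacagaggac
*Lrp8* (chr4:107802635-107802841, plus strand): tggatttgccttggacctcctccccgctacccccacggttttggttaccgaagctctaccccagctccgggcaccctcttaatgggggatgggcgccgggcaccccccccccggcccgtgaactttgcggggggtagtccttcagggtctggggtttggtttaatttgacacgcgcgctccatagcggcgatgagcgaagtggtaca

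The windows were unlike one another. The values given here are for whole windows, including the exon bases left out of the *Dab1* and *Lrp8* sequences above. They therefore do not describe the shorter stretches printed for these genes. That of *Reln* was 80.0% G and C with 37 CG dinucleotides, where the median of the 32851 windows of the table was 52.4% and 6. It held 6 GC boxes, which began 181, 165, 109, 91, 47 and 13 bases before the start, and 32.7% of all windows held at least 1. The *Dab1* window was 56.4% G and C with 10 CG dinucleotides and a CCAAT box on the reverse strand, a motif found in 33.8% of all windows. The *Vldlr* window was 41.6% G and C with 5 CG dinucleotides, and the *Lrp8* window 62.4% with 18, and neither held any of the 6 motifs. The TATA box was in 12.4% of all windows, the T-box element in 3.33%, the E-box in 14.4% and the cyclic AMP element in 1.55%. *Reln* had 1 window in the table, *Dab1* and *Vldlr* 2 each and *Lrp8* 3, and counts per gene do not say which start was used.

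The kinase and the adaptors that act on Dab1 lay near equal levels. *Fyn* (chromosome 10, 39368855 to 39565381, plus strand), the Src family kinase, had 6003 reads or 117 CPM in the SVZ and 2665 reads or 121 CPM in the cortex. Its log2 ratio was -0.05 (-0.12 to 0.02), an interval that included equal CPM when the libraries were scaled by their totals. The ratio was -0.14 under TMM and DESeq2 scaling and -0.15 under upper-quartile scaling, outside that interval. *Crk* (chromosome 11, 75679259 to 75706908, plus strand) had 6262 reads or 122 CPM and 2828 reads or 128 CPM, a log2 ratio of -0.08 (-0.14 to -0.01). Its relative *Crkl* (chromosome 16, 17451987 to 17487434, plus strand) had 4347 reads or 84.5 CPM and 1289 reads or 58.5 CPM, a log2 ratio of 0.53 (0.44 to 0.62). The adaptors thus differed in proportion, with 1.44 *Crk* reads per *Crkl* read in the SVZ and 2.19 in the cortex (log2 difference -0.61, interval -0.72 to -0.50).

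The Rap1 arm was also close to even. *Rapgef1* (chromosome 2, 29619720 to 29740978, plus strand), the exchange factor, had 1483 reads or 28.8 CPM in the SVZ and 731 reads or 33.2 CPM in the cortex. Its log2 ratio was -0.20 (-0.33 to -0.07). A pseudogene on the other strand, *Gm9823*, overlaps 327 of its exonic bases and has no row of its own in the counts. The first strand column held 48.2% (45.6 to 50.8) of *Rapgef1* reads in the SVZ and 44.0% (40.4 to 47.7) in the cortex. Over all genes that column held 49.6% and 49.7%. Whether reads of *Gm9823* are part of the *Rapgef1* count was not tested. *Rap1a* (chromosome 3, 105727267 to 105801336, minus strand), the GTPase, had 3203 reads or 62.3 CPM and 1329 reads or 60.3 CPM. Its log2 ratio of 0.05 (-0.05 to 0.14) turned negative under TMM, upper-quartile and DESeq2 scaling, with -0.05 the lowest value. Its count is uncertain, since any reads that also map to its processed pseudogenes or to the close relative *Rap1b* were left out by the counting. How many were lost in this way was not measured. *Rap1b* was the more abundant, with 15206 and 7591 reads, and *Rap1a* had 0.233 times its reads per kilobase of exon in the SVZ and 0.194 times in the cortex. For *Rap1gap*, which switches Rap1 off, only 103 and 179 reads were found, or 2.00 and 8.12 CPM (log2 ratio -2.02, interval -2.38 to -1.66). There were therefore 14.4 *Rapgef1* reads per *Rap1gap* read in the SVZ and 4.08 in the cortex, a log2 difference of 1.82 (1.44 to 2.20).

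**Figure D2:**
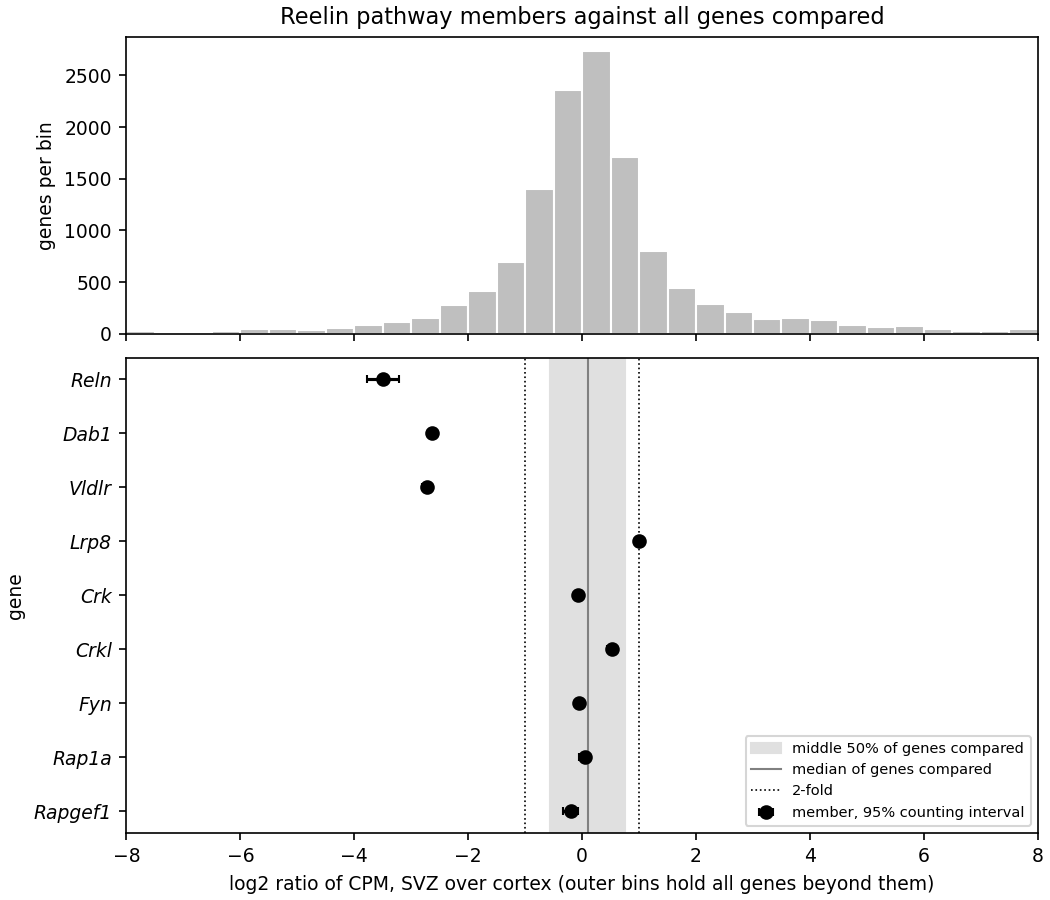
Top, number of genes by log2 ratio of CPM, SVZ over cortex, for the 12738 genes compared, in bins of 0.5 log2 units whose outer bins collect all genes beyond them. Bottom, the log2 ratio of each member with its 95% counting interval, over the middle 50% of genes compared (grey, -0.56 to 0.76), their median (grey line, 0.11) and the 2-fold thresholds (dotted). *Reln*, *Vldlr* and *Dab1* lie left of the band and *Lrp8* at the 2-fold threshold on the right.

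Levels of different genes were compared per kilobase of annotated exon. In the SVZ library *Fyn* stood at 26.7 CPM per kilobase and *Crk* at 25.7, with overlapping intervals, followed by *Rap1a* (23.9), *Lrp8* (22.5), *Dab1* (18.4) and *Crkl* (16.8). *Rapgef1* (3.90) and *Vldlr* (3.86) came next and did not differ beyond counting error, and *Reln* was lowest at 0.104. In the cortex library *Dab1* stood first at 115 CPM per kilobase. *Fyn* (27.7), *Crk* (27.1) and *Vldlr* (25.7) followed with overlapping neighbours, then *Rap1a* (23.1), *Crkl* (11.6) and *Lrp8* (11.3), of which the latter pair overlapped, then *Rapgef1* (4.49) and *Reln* (1.17). The order rests in part on the annotation. With the longest transcript as the length, *Lrp8* came first in the SVZ at 35.7, and *Reln*, whose annotated exons sum to 23738 bases while its longest transcript has 11699, stood at 0.211 and 2.36 and was still the lowest in both libraries.

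**Figure D3:**
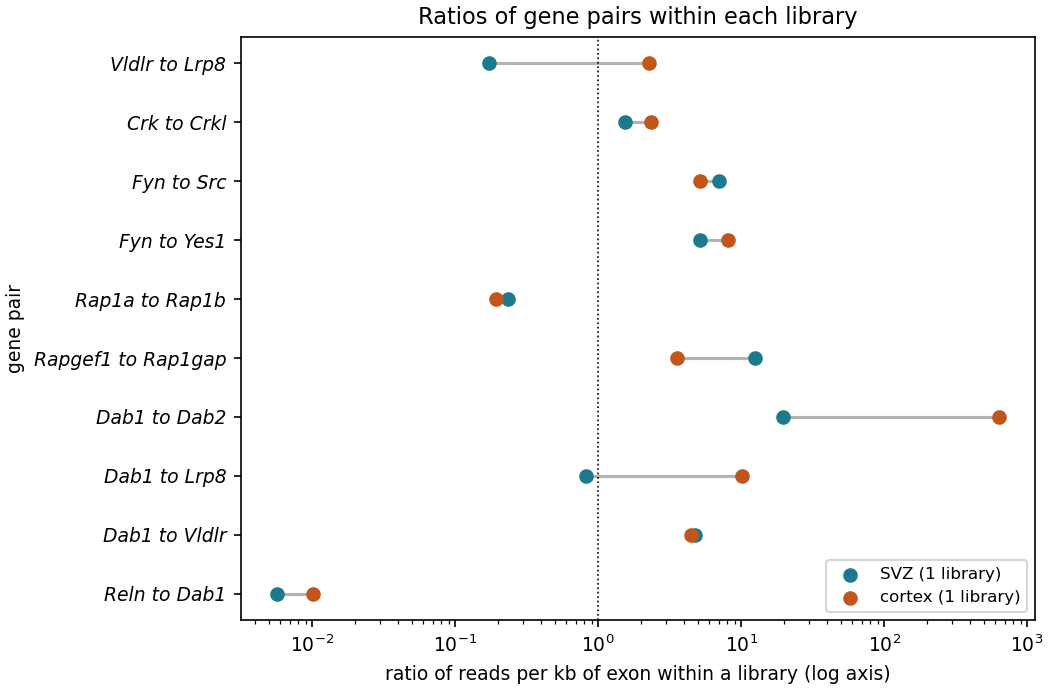
Ratio of reads per kilobase of annotated exon for 10 gene pairs within the SVZ and the cortex library, on a log axis, with a grey line joining the libraries and a dotted line at equal levels. *Vldlr* to *Lrp8* crosses that line, from 0.172 in the SVZ to 2.26 in the cortex, and so does *Dab1* to *Lrp8*, from 0.816 to 10.1, while the points of *Dab1* to *Vldlr* nearly coincide at 4.75 and 4.46.

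A wider set of 87 genes, grouped by their role around the pathway, was then described. They were chosen by function, but with earlier results of these data known. Of these, 84 passed the minimum of 1 CPM, 12 (14.3%) were at least 2-fold higher in the SVZ and 14 (16.7%) at least 2-fold higher in the cortex, beside 20.0% and 15.6% of all genes compared. Their median log2 ratio was -0.19, beside 0.11. The set as a whole was thus close to the background. The values of the groups follow, with 5 to 11 genes compared in each. Their counts are to be read beside the same 20.0% and 15.6% of all genes.

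Outside the cell, 5 proteases known to cut reelin included 3 past 2-fold towards the SVZ and 1 towards the cortex, with a median log2 ratio of 1.03. *Adamts3*, which cleaves reelin in its amino-terminal part, had the most reads of the group, with 2560 reads or 49.8 CPM in the SVZ and 7103 reads or 322 CPM in the cortex. Its log2 ratio of -2.69 (-2.76 to -2.63) lay between those of *Vldlr* and *Dab1*. *Adamts5* had 173 reads in the SVZ and 1 in the cortex, a log2 ratio of 6.21 with a wide interval of 3.72 to 11.52. With a minimum of 10 CPM only *Adamts3* and *Plat* (log2 ratio 0.75), the gene of tissue plasminogen activator, remained in the group and its median was -0.97. Among 5 genes for other ligands of the receptors and their chaperone, 3 were at least 2-fold higher in the SVZ and 0 in the cortex, and the median was 1.26. *Apoe*, a lipid carrier bound by these receptors, had 6876 and 233 reads (log2 ratio 3.66, interval 3.47 to 3.86) and *Clu* 3975 and 388 (2.13, 1.98 to 2.29). *Lrpap1*, the chaperone that escorts the receptors through the secretory pathway, had the lowest log2 ratio of the group, 0.89.

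Of 7 compared receptors of the LDL receptor family other than *Vldlr* and *Lrp8*, 2 were at least 2-fold higher in the SVZ and 1 in the cortex, with a median of 0.29 that became 0.75 with a minimum of 10 CPM. *Lrp4* had 2818 and 23 reads, a log2 ratio of 5.71 (5.13 to 6.37), and *Lrp1b*, with 53 and 81 reads, stood at -1.83 (-2.36 to -1.32). The 5 genes of receptor trafficking and cleavage ranged from 0.80 for *Snx17*, a sorting nexin that returns such receptors to the surface, to -1.05 for *Mylip*, a ubiquitin ligase that marks them for degradation, the latter from 73 and 65 reads.

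Around Dab1, 6 other kinases and adaptors were compared, of which 2 were at least 2-fold higher in the SVZ and 1 in the cortex, with a median of 0.11 that turned to -0.39 with a minimum of 10 CPM, which leaves out *Dab2* and keeps 1 gene past 2-fold in each direction. *Dab2*, the relative of *Dab1*, was covered by 353 and 29 reads, and its log2 ratio was 2.38 (1.84 to 2.98), opposite to *Dab1*, so that *Dab1* reads per *Dab2* read went from 21.2 in the SVZ to 689 in the cortex. *Dab2ip* had the lowest ratio, -1.27. Of the kinases, *Src* had a log2 ratio of -0.50 (-0.66 to -0.34) and *Yes1* 0.60 (0.46 to 0.73), and *Fyn* stood above both in each library. Per kilobase of exon, *Fyn* had 7.06 times the reads of *Src* and 5.14 times those of *Yes1* in the SVZ, and 5.16 and 8.06 times in the cortex. All 7 genes of the Cul5 ubiquitin ligase, which removes phosphorylated Dab1, lay within 2-fold, from 0.82 for *Ube2f* to -0.89 for *Socs7*, the subunit that binds Dab1, with a median of 0.10.

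Downstream, the group of *Rap1b* and 6 other regulators of Rap1 had a median of -0.34 and ranged from 0.06 for *Rapgef6* to the value of *Rap1gap*. Of 11 compared adhesion effectors of Rap1, 1 was at least 2-fold higher in each direction, with a median of 0.03. *Itgb1*, the integrin beta subunit, had a log2 ratio of 1.17 (1.10 to 1.24), *Cdh2*, the N-cadherin gene, -0.42 (-0.47 to -0.38), and *Rassf5*, a Rap1-binding adaptor, -2.22 (-2.93 to -1.54) from 28 and 56 reads. In the PI3K, Akt and Gsk3 branch the median was -0.47. Of its 11 genes, 3 were past 2-fold towards the cortex and 0 towards the SVZ, beside 15.6% and 20.0% of all genes. They included *Pik3r1* (log2 ratio -1.52, the lowest) and *Pik3r2* (-1.01), while *Pik3ca*, the highest, stood at 0.08. The count of *Gsk3a* is uncertain, because the stranded columns held 83.9% more reads for it in the SVZ and 82.5% more in the cortex, and its log2 ratio was -0.18 from the unstranded and -0.17 from the stranded counts.

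Of the 9 cytoskeletal effectors, 3 were past 2-fold towards the cortex and 0 towards the SVZ, beside 15.6% and 20.0% of all genes. Their median was -0.22. *Mapt*, the gene of the microtubule-binding protein tau, was covered by 9739 and 42316 reads and its log2 ratio was -3.34 (-3.37 to -3.31), and *Map1b*, another microtubule-associated protein, 147906 and 371474 reads and -2.55 (-2.56 to -2.54), whereas *Rac1* was highest at 0.29. Of the 11 genes of the Lis1 complex, the doublecortins and Cdk5, 1 was past 2-fold towards the SVZ and 2 towards the cortex, with a median of -0.54. *Nde1*, a partner of Lis1 in dividing progenitors, was covered by 9411 and 117 reads, a ratio of 5.11 on the log2 scale (4.84 to 5.38), while its relative *Ndel1* stood at -0.54. *Cdk5r2*, an activator of the neuronal kinase Cdk5, was covered by 29 and 69 reads, a ratio of -2.47 on that scale (-3.15 to -1.83), and *Cdk5r1* stood at -1.35. *Mapt*, *Map1b* and the Cdk5 activators are neuronal genes as well as parts of this pathway, and the neuronal marker sum moved in the same direction, whose part in these ratios was not tested.

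**Figure D4:**
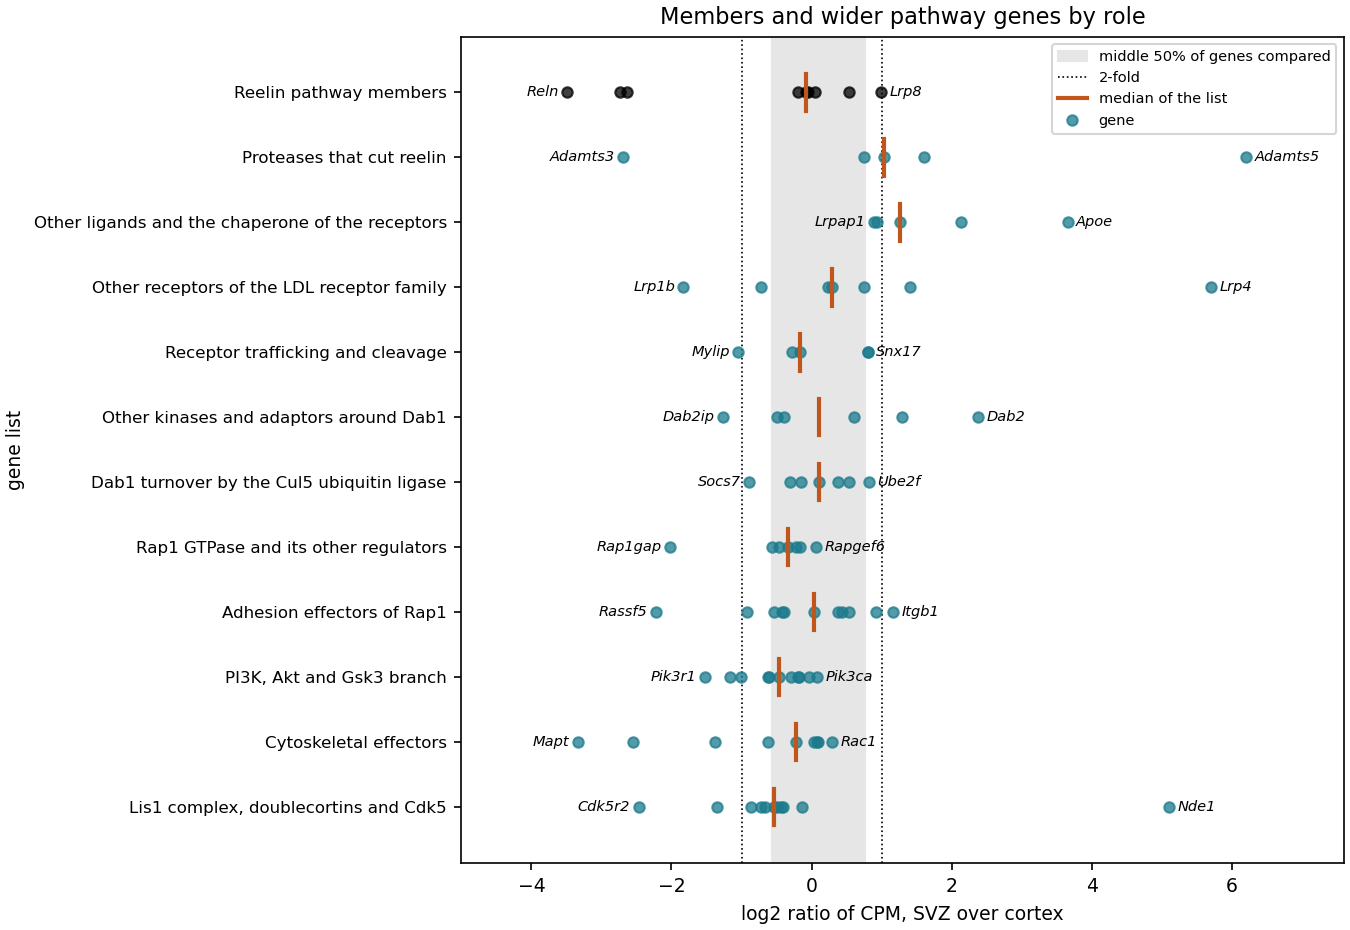
Log2 ratio of CPM, SVZ over cortex, for each member (black points, top) and for the 84 compared genes of the wider pathway (blue-green points), 1 line per group by role. Orange ticks are group medians, the grey band is the middle 50% of all genes compared, dotted lines are the 2-fold thresholds, and the lowest and highest gene of each group are named. *Adamts5*, *Lrp4* and *Nde1* lie furthest to the right, and *Reln*, *Mapt*, *Vldlr*, *Adamts3* and *Dab1* furthest to the left.

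Markers of other cell types that such pieces could hold were read in both libraries. The 6 blood vessel markers summed to 72.8 CPM in the SVZ and 62.1 CPM in the cortex, with individual log2 ratios from 0.87 (*Cldn5*) to -1.26 (*Flt1*). The 5 meningeal markers summed to 3.99 and 8.80 CPM, from only 205 and 194 reads. *Col1a1* had 0 reads in the SVZ and 2 in the cortex, too few for a ratio. *Col3a1* stood at a log2 ratio of -3.22, while *Col1a2*, with 96 and 32 reads, stood at 0.36 (-0.23 to 0.99). The 6 microglial markers summed to 50.3 and 5.53 CPM, each higher in the SVZ, from *Csf1r* (log2 ratio 1.90) to *C1qb* (4.33). The 6 erythroid markers summed to 20.1 and 10.6 CPM with all 4 haemoglobin genes at 0 in both, and the 4 choroid plexus markers to 245 and 0.726 CPM, of which *Ttr* made up nearly all, with *Folr1*, *Kl* and *Clic6* at 0 in the cortex and *Kl* at 0 in the SVZ. Microglial and choroid plexus markers, like the progenitor markers given above, moved in the direction of *Lrp8*, *Apoe*, *Clu* and *Lrp4*. The meningeal sum, though not *Col1a2*, moved in that of *Reln*, *Dab1* and *Vldlr*. The part of these cell types in these ratios was not tested.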

How the data were processed

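RNA from the 2 LCM pieces was made into cDNA libraries by a kit for low input and read from both ends. According to the study's methods and the submitters' processing notes, the authors trimmed adapters with cutadapt 4.1, mapped read 1 only to mm10 with STAR 2.7.9a, and took the gene counts from the same program. The deposited values are raw read counts, in an unstranded column, used here, and 2 columns for separate strands. STAR leaves out reads that map to several places or overlap several genes. A merged table with the authors' CPM, fold change and log10 ratio was not used.

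CPM was taken on the sum of the gene rows. Between 59.0% and 59.1% of all reads were assigned to genes. The log2 ratio used no pseudocount, with a floor of 3 reads (0.0583 CPM in the SVZ, 0.136 CPM in the cortex) for a count of 0 and no ratio where both counts were at or under it. Intervals are Clopper-Pearson for ratios of libraries and exact conditional for ratios of gene pairs. No test was run. Genes, lists and pairs were chosen with earlier results of these data known. All members and pairs were named, and in each pathway list the highest, the lowest and every gene past 4-fold, with some markers of the cell type lists and a few further genes chosen for their role after their values were seen. Some list genes are not reported here by name. Of the list genes, 6 matched through older symbols. Positions and lengths are from GENCODE M21 (GRCm38, the build of mm10). Alternatives were scaling by upper quartile or TMM in edgeR 4.0.16 and by size factors from DESeq2 1.42.0, library totals less the 10 genes with most reads, stranded sums, a thinned SVZ library, a pseudocount of 1 CPM, and other minimums, thresholds and lengths. Computations ran in Python 3.11.15 with pandas 2.3.3, scipy 1.17.1 and numpy 2.4.6, figures in matplotlib 3.10.9 and scaling in R 4.3.3. The ratio and its interval were tested on simulated counts that held counting error only. That test could not show how they behave under variation between tissue pieces or PCR copies.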

Additional observations from a re-analysis of the deposited data

How the results depend on the processing

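No paired analysis was possible because there was a single library per area, which also left no replicate to drop. The 3 members at least 2-fold higher in the cortex and the 0 at least 2-fold higher in the SVZ were the same in number under each alternative run, 4-fold included. TMM, upper-quartile and DESeq2 scaling gave a median log2 ratio of the members of -0.17 in place of -0.08, and upper-quartile scaling moved the median of all genes by -0.102. These scalings shift every ratio of a library pair alike, so the order of the members stayed, with *Lrp8* at its lowest, 0.89, and *Rap1a* the only member whose ratio changed sign, under these 3 settings. Over all genes compared, 2547 were at least 2-fold higher in the SVZ and 1992 in the cortex. A 4-fold threshold gave 1300 and 893, and a minimum of 10 CPM, which leaves 9027 genes, gave 1341 and 1113. That minimum also moved the medians of the reelin proteases to -0.97 over 2 genes, of the kinases and adaptors around Dab1 from 0.11 to -0.39 over 5, of the other LDL family receptors from 0.29 to 0.75 over 5, of the adhesion effectors to 0.38 over 7 and of the PI3K, Akt and Gsk3 branch to -0.39 over 10, since fewer genes were compared. Depth limits *Reln* in the SVZ most, where its 2.47 CPM has an interval of 2.06 to 2.94.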
